A study of Homo sapiens with 16 samples.

Results

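The aminoacyl-tRNA synthetase genes were followed across every group of the LN229 RNA-seq data. A list of 33 genes was taken by symbol and looked up by Entrez identifier, and all 33 were among the 13559 genes listed for the first experiment and the 14024 genes listed for the second. Symbols ending in 1, with FARSA and FARSB, gave 18 cytosolic members, and symbols ending in 2 gave 15 mitochondrial members. LN229 is a human glioblastoma (GBM) cell line. In the first experiment LN229 cells grew without an added compound in regular culture, which is complete medium, or in ischemic culture, which combines low nutrients with hypoxia. In the second experiment both cultures were given DMSO (the vehicle), VX745 (an inhibitor of the kinase p38α) or MK25 (an inhibitor of MK2, a kinase downstream of p38). Each of the 8 groups held 2 libraries, and nothing in the labels says that these came from separate cultures, so a p-value measures only the spread between libraries, which may be technical. All groups are 1 cell line in a dish, which holds no other cell type of a tumor, and the ischemic culture lowers glucose, glutamine, serum and oxygen together, so the effect of any one of them cannot be told apart.

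Between 20122017 and 37562668 reads per library lay on the listed genes, and the lowest count of any member in any library was 113 reads, for CARS1. All values below are log2 CPM (read counts scaled to a common library size), normalized by the authors, so a difference of 1 is a doubling. The experiments were normalized apart, and levels are compared only within one of them. The markers chosen for the line, VIM, NES, CD44, S100A6, SOX9 and GFAP, were all listed, but at unlike levels. In regular libraries of the first experiment VIM, NES, CD44 and S100A6 read 9.50 to 11.40, and GFAP 0.87 and 1.03. SOX9 read -2.62 and -2.40 there, at or under the level of 3 reads. Of 9 markers of immune, endothelial, neuronal and oligodendrocyte cells, PTPRC, AIF1, PECAM1, CDH5, RBFOX3, MBP and MOG were not among the listed genes, and CD68 and SYT1 were. The summed level of those 2 genes was 35.1 to 36.7 CPM in regular and 114.3 to 120.7 CPM in ischemic libraries of the first experiment, and its part in the results was not tested.

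Aminoacyl-tRNA synthetases join each amino acid to its tRNA, the step that feeds every round of translation. The cytosolic enzymes serve ribosomes in the cytosol, and the mitochondrial enzymes, also encoded in the nucleus, serve the few proteins made inside mitochondria. GARS1 and KARS1 encode both forms. When amino acids run short, uncharged tRNA activates the kinase GCN2 (gene EIF2AK4), translation of the transcription factor ATF4 increases, and ATF4 is known to induce many genes of amino acid supply, cytosolic synthetases among them. A gene was called when the adjusted p of limma was under 0.05 (Benjamini-Hochberg over all genes) and the fold change was at least 1.5. A weaker call, of any size, is named as such. For ischemic against regular culture, the value of the second experiment is the one with DMSO unless an inhibitor is named.

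In ischemic culture most cytosolic synthetase genes rose, and no mitochondrial one was called higher. In the first experiment 12 of 18 cytosolic members were called higher and 1 lower, where 21.3% of all genes were called higher and 20.2% lower. None of the 15 mitochondrial members was called higher and 3 were called lower; with the voom fit to the recovered reads the total for both directions was also 3, and 7 mitochondrial members had an unadjusted p under 0.05. With DMSO in the second experiment 12 cytosolic members were called higher and 0 lower, and 0 mitochondrial members higher and 1 lower, where 18.1% of all genes were called higher and 17.9% lower; 17 cytosolic and 11 mitochondrial members had an unadjusted p under 0.05 there, and voom called 12 and 1. The 12 genes called higher were the same 12 in both experiments. The median log2 fold change was 0.92 in the first experiment and 1.00 with DMSO over cytosolic members, and -0.10 and -0.11 over mitochondrial members. Over all genes it was -0.01 in each. In bulk RNA, fewer cells with a transcript and less of it per cell cannot be told apart.

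**Figure D1:**
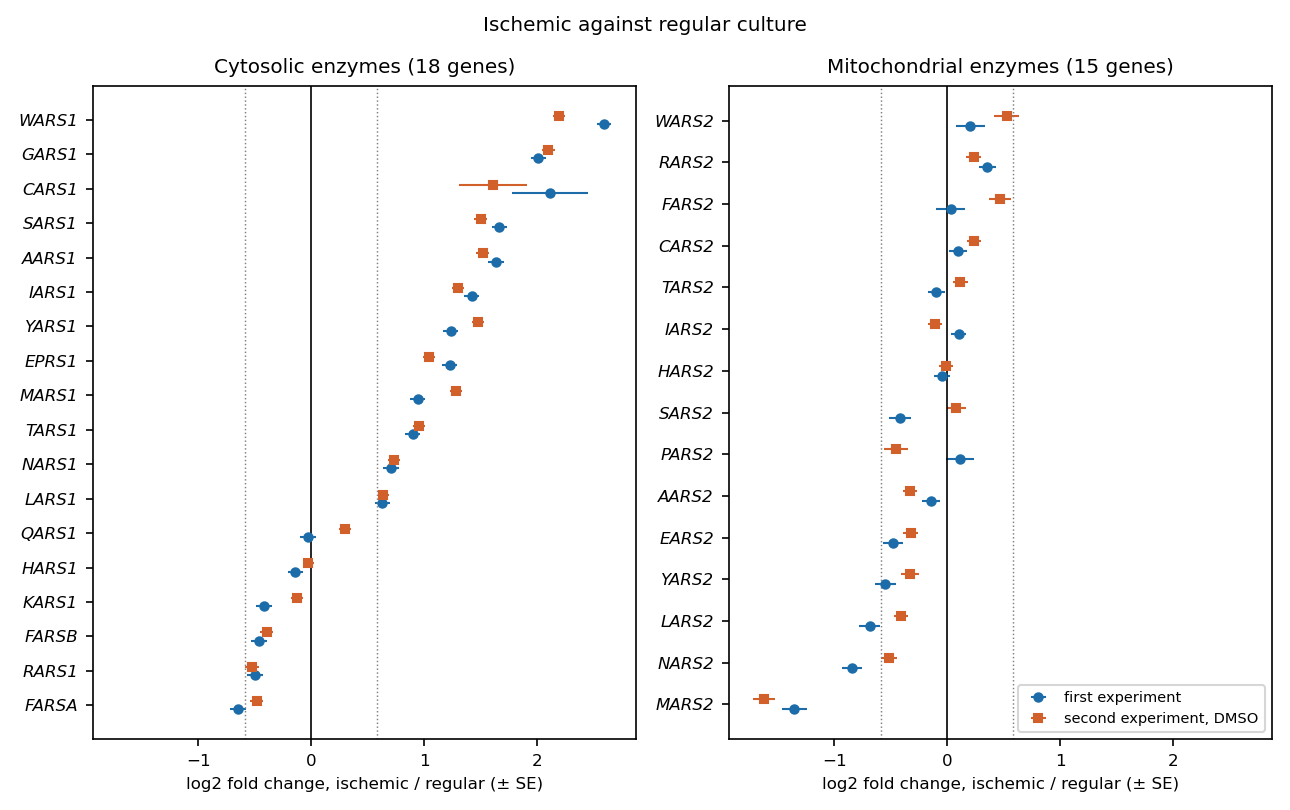
Log2 fold change (x axis) of ischemic against regular culture for each member (y axis), with SE bars, in the first experiment (circles) and with DMSO in the second (squares), 2 libraries per group. Dotted lines mark a fold change of 1.5. The 12 cytosolic members at the top lie right of the dotted line in both experiments, and MARS2 lies farthest to the left.

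Beside these rises, the letters that ATF4 and its C/EBP partners are known to bind were looked up in the promoters. The RefSeq promoter windows (GRCh38.p14, 250 bases before to 50 after the gene start) held 30 of the 33 members; LARS1, YARS1 and AARS2 were not matched. The letters TGATGNAA, the core of the C/EBP-ATF response element, were searched on both strands, and no other motif was searched. They were found in 3.67% of 27305 promoters, in 6 of 16 cytosolic promoters (37.5%) and in 1 of 14 mitochondrial promoters (7.14%). The 6 cytosolic genes with the letters were all called higher in both experiments, with log2 fold changes of 0.71 to 2.11 in the first. Of the 10 cytosolic genes without them, GARS1, EPRS1, SARS1 and WARS1 were also called higher, and the range was -0.65 to 2.59. A match is a description of the letters and not a bound site, and no match says nothing of the factor. The windows below are shown because they carry the shared letters beside a shared rise. Each is 30 bases, 5′ to 3′, with the match in capitals.
AARS1: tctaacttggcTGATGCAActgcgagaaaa
CARS1: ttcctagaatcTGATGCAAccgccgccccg
IARS1: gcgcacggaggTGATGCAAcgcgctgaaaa
MARS1: gaatccctcgcTGATGCAAccggaaccggc
NARS1: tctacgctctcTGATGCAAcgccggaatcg
TARS1: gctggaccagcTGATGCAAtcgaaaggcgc
YARS2: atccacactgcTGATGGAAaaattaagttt
In the 6 cytosolic windows the match read TGATGCAA, and in YARS2, a mitochondrial member that fell, it read TGATGGAA. The AARS1 window lies at chr16:70289675-70289704, CARS1 at chr11:3057407-3057436 and IARS1 at chr9:92293692-92293721, all on the + strand. The other windows are on the - strand, with MARS1 at chr12:57488053-57488082, NARS1 at chr18:57621804-57621833, TARS1 at chr5:33440956-33440985 and YARS2 at chr12:32756076-32756105. The windows of AARS1, CARS1, IARS1, MARS1 and TARS1 are shown on the strand opposite to the gene. Positions are given for the first base of the match in the direction of the gene, from the gene start of the promoter table. They were -2, -13, -4, 14 and 2 in CARS1, IARS1, MARS1, NARS1 and TARS1, and -187 in AARS1 and -197 in YARS2. For TARS1 the promoter window begins at 33440715, past the annotated gene start at 33440696, so its match lies inside the annotated gene.

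Averaged over both experiments, the largest changes among the cytosolic genes were those of tryptophanyl and glycyl synthetase. WARS1 (tryptophan), which interferon also induces, read 7.14 and 7.2 in regular and 9.77 and 9.74 in ischemic libraries of the first experiment, a log2 fold change of 2.59 ± 0.06 (SE) or 6.03-fold (adjusted p = 9.88e-12). With DMSO it read 7.24 and 7.36 against 9.48 and 9.51, a change of 2.20 ± 0.06 (SE). GARS1 (glycine), whose product works in both compartments, read 7.84 and 7.81 against 9.87 and 9.80, a change of 2.01 ± 0.07 (SE) or 4.03-fold. With DMSO it read 8.01 and 7.84 against 9.98 and 10.08, a change of 2.10 ± 0.06 (SE). For both genes the ischemic and regular libraries were far apart and the replicates close. GARS1 shares 10.9% of the exonic length of its main transcript with GARS1-DT on the opposite strand, and WARS1 shares 7.31% with an antisense gene. The library kit is not stated to keep strand, so reads of such overlapping genes cannot be told apart.

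Seryl, alanyl, isoleucyl and cysteinyl synthetase followed. SARS1 (serine) read 7.43 and 7.32 in regular and 9.06 and 9.02 in ischemic libraries of the first experiment, a change of 1.67 ± 0.07 (SE), and 7.53 and 7.39 against 8.95 and 8.97 with DMSO, a change of 1.5 ± 0.06 (SE). AARS1 (alanine) read 6.84 and 6.93 against 8.49 and 8.55, a change of 1.64 ± 0.07 (SE), and 7.33 and 7.46 against 8.87 and 8.95 with DMSO, a change of 1.52 ± 0.06 (SE). IARS1 (isoleucine) read 7.61 and 7.60 against 9.02 and 9.03, a change of 1.42 ± 0.06 (SE), and 7.72 and 7.73 against 9.0 and 9.05 with DMSO, a change of 1.30 ± 0.05 (SE). None of these groups overlapped. CARS1 (cysteine) was the noisiest member. It read 3.74 and 2.16 in regular and 5.18 and 4.95 in ischemic libraries, a change of 2.11 ± 0.34 (SE) (adjusted p = 0.000124), and 3.01 and 2.95 against 5.10 and 4.08 with DMSO, a change of 1.61 ± 0.30 (SE) (adjusted p = 0.000138). Of the words of 31 bases in its transcripts, 76.3% also lie on an alternate scaffold of the genome, so its level is uncertain.

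Methionyl, glutamyl-prolyl, isoleucyl, leucyl, glutaminyl, lysyl and arginyl synthetase belong to the multisynthetase complex, a stable assembly of cytosolic enzymes. These 7 genes did not move as one. In both experiments EPRS1, IARS1, LARS1 and MARS1 were called higher, and KARS1 and RARS1 fell by less than 1.5-fold, passing the test at any size. Among the 11 cytosolic members outside the complex, 8 were called higher in both experiments. EPRS1 (glutamate and proline) read 8.03 and 8.03 against 9.28 and 9.23 in the first experiment, a change of 1.23 ± 0.06 (SE), and with DMSO the change was 1.04 ± 0.05 (SE). MARS1 (methionine) read 7.83 and 7.81 against 8.79 and 8.74, a change of 0.94 ± 0.06 (SE), and with DMSO the change was 1.28 ± 0.05 (SE). MARS1 overlaps DDIT3, a stress-response gene that itself changed by 2.12 ± 0.16 (SE), on the opposite strand over 2.32% of its exonic length. LARS1 (leucine), a sensor of leucine for mTORC1, lay just past the threshold, at 8.12 and 8.12 against 8.77 and 8.73 and a change of 0.63 ± 0.06 (SE). QARS1 (glutamine) was at -0.03 ± 0.07 (SE) in the first experiment (adjusted p = 0.746) and rose at any size with DMSO, by 0.30 ± 0.05 (SE) (adjusted p = 5.94e-05).

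The remaining cytosolic members that rose were TARS1, NARS1 and YARS1. YARS1 (tyrosine) read 7.49 and 7.46 against 8.70 and 8.73, a change of 1.24 ± 0.06 (SE), and 1.48 ± 0.05 (SE) with DMSO. TARS1 (threonine) read 7.97 and 7.93 against 8.84 and 8.85, a change of 0.90 ± 0.06 (SE), and 0.96 ± 0.06 (SE) with DMSO. NARS1 (asparagine) read 8.23 and 8.12 against 8.92 and 8.85, a change of 0.71 ± 0.07 (SE), and 0.73 ± 0.05 (SE) with DMSO. In each of these 3 genes the regular and ischemic libraries did not overlap.

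Against the direction of their class, 4 cytosolic members were lower at any size in both experiments, and they were the same 4. In the first experiment 35.2% of all genes were called lower at any size and 35.2% higher, and with DMSO 35.2% lower and 34.4% higher. FARSA and FARSB encode the subunits of phenylalanyl synthetase, and they fell together. FARSA read 7.76 and 7.72 in regular and 7.03 and 7.15 in ischemic libraries, a change of -0.65 ± 0.07 (SE), and -0.48 ± 0.06 (SE) with DMSO. FARSB read 6.70 and 6.61 against 6.19 and 6.19, a change of -0.46 ± 0.07 (SE), and -0.39 ± 0.06 (SE) with DMSO. RARS1 (arginine) read 7.65 and 7.54 against 7.10 and 7.11, a change of -0.50 ± 0.07 (SE), and -0.53 ± 0.06 (SE) with DMSO. FARSA in the first experiment was the only one of these 4 to reach a 1.5-fold change. KARS1 (lysine), the other gene that serves both compartments, read 8.23 and 8.16 against 7.70 and 7.85, a change of -0.42 ± 0.07 (SE) (adjusted p = 0.000217). With DMSO it read 8.31 and 8.36 against 8.19 and 8.22, a change of -0.13 ± 0.05 (SE) (adjusted p = 0.0344), a call that was lost without regular DMSO replicate 2 (-0.10), without ischemic DMSO replicate 1 or 2 (-0.11 and -0.14), and without ischemic VX745 replicate 1 or 2, which enter the shared estimate of the spread. So the 2 genes with a product in both compartments differed in direction, GARS1 higher and KARS1 lower. FARSA and RARS1 were given per library after their values were seen.

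HARS1 and HARS2 (histidine, cytosol and mitochondrion) lie head to head on chromosome 5, with starts 85 bases apart, at 140691370 on the - strand and 140691455 on the + strand (GRCh38). In the first experiment and with DMSO neither passed the test for ischemia. HARS1 read 7.73 and 7.66 in regular and 7.53 and 7.59 in ischemic libraries, a change of -0.14 ± 0.07 (SE) (adjusted p = 0.0792), and 7.84 and 7.84 against 7.83 and 7.80 with DMSO (adjusted p = 0.67). HARS2 read 6.31 and 6.30 against 6.28 and 6.24, a change of -0.04 ± 0.07 (SE) (adjusted p = 0.586), and 6.47 and 6.30 against 6.36 and 6.39 with DMSO (adjusted p = 0.907). Within the inhibitors both were lower in ischemic than in regular culture at any size. HARS1 changed by -0.33 ± 0.05 (SE) with VX745 and -0.46 ± 0.05 (SE) with MK25, and HARS2 by -0.16 ± 0.06 (SE) (adjusted p = 0.0276) and -0.15 ± 0.06 (SE) (adjusted p = 0.0348). Each of these HARS2 calls was lost in 4 of the leave-outs of 1 library. HARS1 shares 11.3% of its exonic length with WDR55 on the opposite strand.

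**Figure D2:**
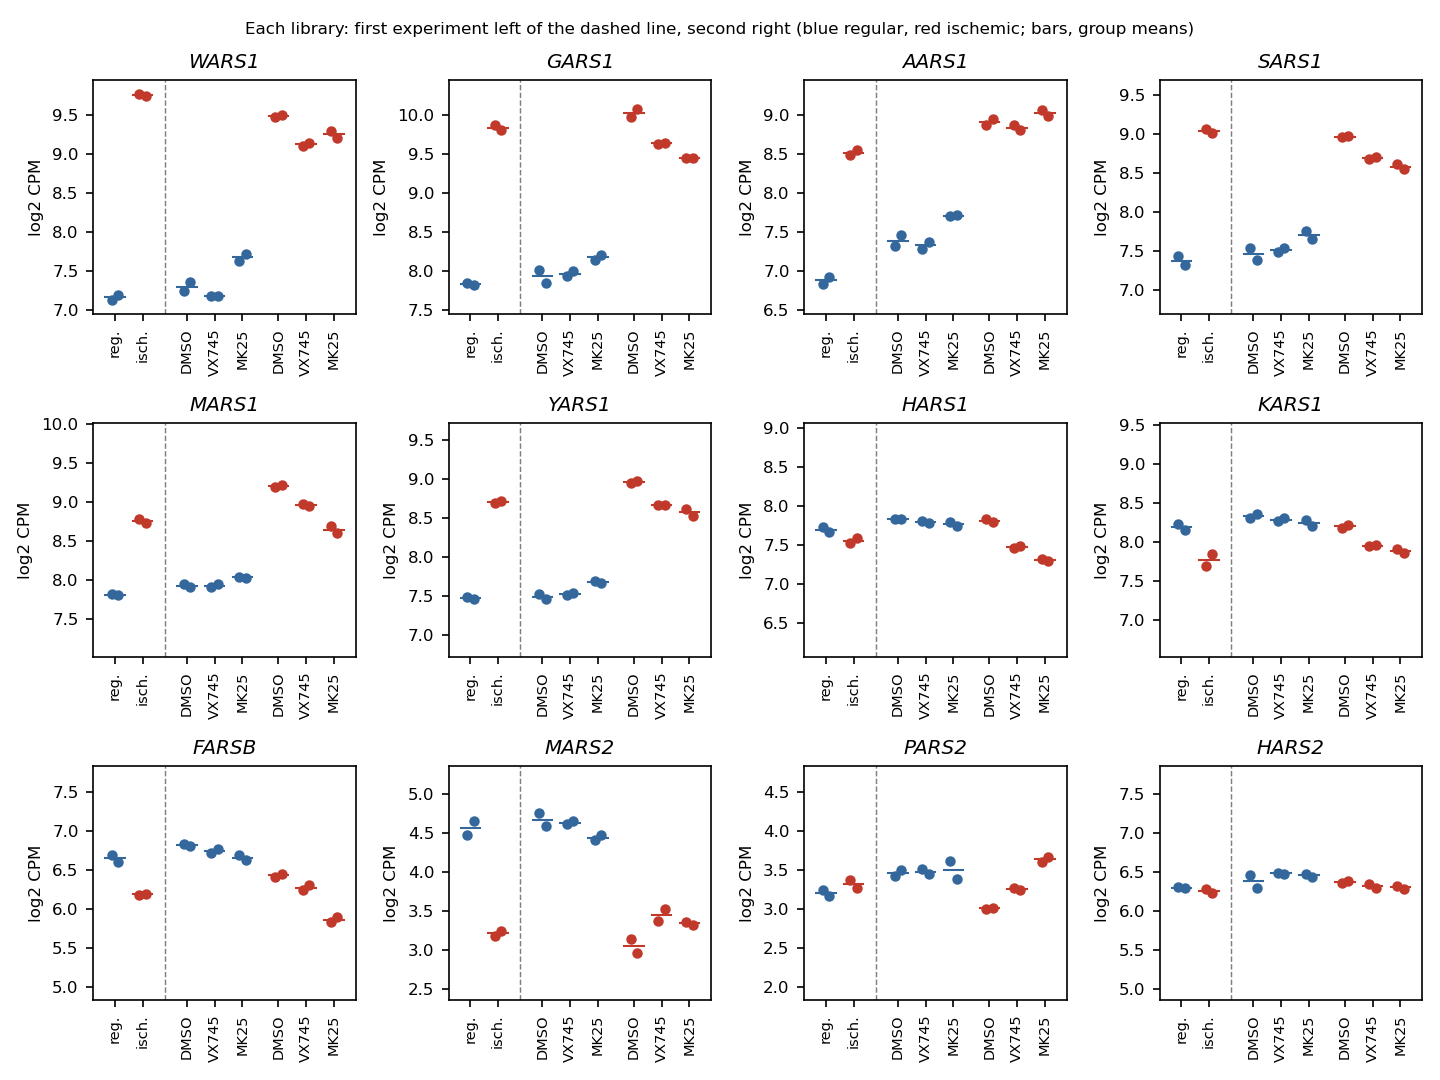
Log2 CPM (y axis) of 12 members in all 16 libraries by group (x axis), with points for libraries and bars for group means; every panel spans 3 log2 units. WARS1, GARS1, AARS1, SARS1, MARS1 and YARS1 are higher in every ischemic library than in any regular library of the same experiment, and MARS2 is lower.

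Among the mitochondrial members MARS2 fell the most. MARS2 (methionine) read 4.48 and 4.66 in regular and 3.18 and 3.25 in ischemic libraries, a change of -1.35 ± 0.11 (SE) (adjusted p = 3.43e-07), and 4.76 and 4.59 against 3.15 and 2.96 with DMSO, a change of -1.62 ± 0.10 (SE). NARS2 (asparagine) read 5.56 and 5.53 against 4.77 and 4.64, a change of -0.84 ± 0.08 (SE), and 5.60 and 5.53 against 5.03 and 5.07 with DMSO, a change of -0.52 ± 0.07 (SE). LARS2 (leucine) read 5.48 and 5.58 against 4.74 and 4.95, a change of -0.68 ± 0.09 (SE), and 5.73 and 5.69 against 5.28 and 5.31 with DMSO, a change of -0.41 ± 0.06 (SE). These 3 were the mitochondrial members called lower in the first experiment, and MARS2 was the one called lower with DMSO. YARS2 (tyrosine) read 5.22 and 5.08 against 4.53 and 4.67, a change of -0.55 ± 0.09 (SE), and 5.10 and 5.19 against 4.69 and 4.95 with DMSO, a change of -0.33 ± 0.08 (SE). An antisense gene covers 18.3% of its exonic length, and without ischemic DMSO replicate 1 its change with DMSO was -0.20 and did not pass. At any size 6 of 15 mitochondrial members were lower in the first experiment and 7 with DMSO, where 35.2% of all genes were lower in each, so these counts lie near that share. Of these, 5 were lower in both, those above and EARS2, which also serves as the enzyme that starts the indirect route to mitochondrial glutaminyl-tRNA. EARS2 changed by -0.48 ± 0.09 (SE) and -0.32 ± 0.07 (SE).

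The other mitochondrial members stayed under a 1.5-fold change in the first experiment and with DMSO. RARS2 (arginine) was higher at any size in both, at 5.35 and 5.31 against 5.66 and 5.72 and a change of 0.36 ± 0.08 (SE), and at 0.24 ± 0.07 (SE) with DMSO, where it was 0.18 and did not pass without ischemic DMSO replicate 1. With DMSO, CARS2, FARS2 and WARS2 were also higher at any size, with changes of 0.24, 0.47 and 0.53, and AARS2 and PARS2 lower, with -0.33 and -0.45. In the first experiment none of those 5 passed, with values of 0.10, 0.03, 0.21, -0.14 and 0.11 in the same order. SARS2 was lower at any size in the first experiment alone, at -0.41 ± 0.10 (SE) (adjusted p = 0.00195) against 0.08 ± 0.09 (SE) with DMSO (adjusted p = 0.403), and whether the experiments differ was not tested. A read-through gene on the same strand covers 77.5% of the exonic length of SARS2. IARS2 and TARS2 did not pass in the first experiment or with DMSO, with changes of -0.11 to 0.12. IARS2 was lower at any size for ischemia with MK25, with a change of -0.16 ± 0.06 (SE) (adjusted p = 0.0282), a call lost in 2 of the leave-outs of 1 library.

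Per kilobase of main transcript, the cytosolic class also had the higher median before any stress, though the ranges of the classes overlapped. In the regular libraries of the first experiment the log2 CPM per kilobase had a median of 6.26 over cytosolic and 3.69 over mitochondrial members. In ischemic libraries the medians were 6.82 and 3.37. KARS1 had the highest cytosolic level in regular culture, 7.2, and GARS1 in ischemic culture, 8.55. IARS2 had the highest mitochondrial level in both, 5.9 and 6.0, and the lowest was that of WARS2 in regular (1.64) and MARS2 in ischemic culture (1.62). The order of these levels was not tested.

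As a summary per library, the mean log2 CPM of each class was taken over its members. The cytosolic mean was 7.42 and 7.31 in regular and 8.19 and 8.19 in ischemic libraries of the first experiment. The mitochondrial mean was 5.16 and 5.14 in regular and 4.88 and 4.93 in ischemic libraries. The classes moved apart, by 1.07 in log2 units in the first experiment (SD between replicates 0.06), 1.00 with DMSO (SD 0.02), 0.86 with VX745 (SD 0.03) and 0.58 with MK25 (SD 0.01), each n = 2 per group. With the class median in place of the mean the first 2 of these were 1.72 and 1.46, and without CARS1 they were 1.00 and 0.96. In the second experiment the cytosolic mean of ischemic libraries was 8.31 and 8.27 with DMSO, 8.06 and 8.11 with VX745 and 7.95 and 7.98 with MK25, and the mitochondrial mean stayed between 5.01 and 5.07.

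**Figure D3:**
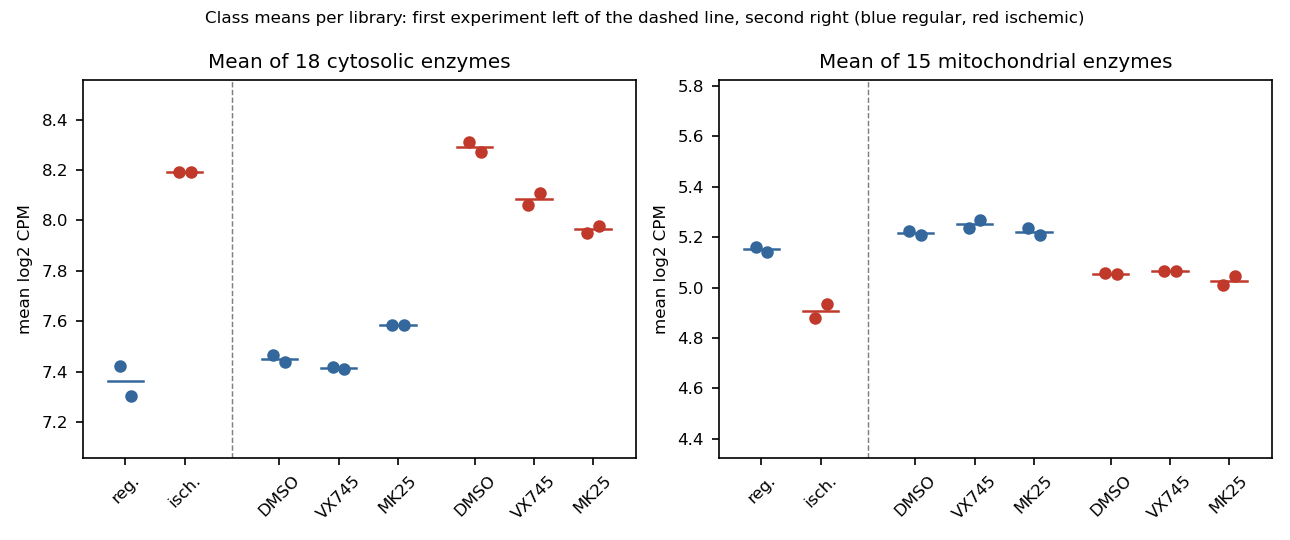
Mean log2 CPM (y axis) over the 18 cytosolic members (left) and the 15 mitochondrial members (right) in each library by group (x axis), points for libraries and bars for group means; both panels span 1.5 log2 units. Ischemic libraries lie above regular ones on the left, at 7.95 to 8.31 against 7.31 to 7.58, and below them on the right.

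The same contrast was read within amino acids. For 16 pairs of a cytosolic and a mitochondrial enzyme for one amino acid, the difference of their log2 values was taken in each library. In the first experiment the difference was larger in both ischemic than in both regular libraries for 12 pairs and smaller for 4, with a median change of 1.43. With DMSO it was larger for 12 pairs, smaller for 3 and overlapping for 1, with a median change of 1.37. These counts set no fold or p threshold, and their share over all genes was not computed. Of single genes called at any size, 35.2% were higher and 35.2% lower in the first experiment, and 34.4% and 35.2% with DMSO. Those shares follow another rule, so they are no background for the pairs. The methionine pair moved apart by 2.30 and 2.90, with MARS1 rising and MARS2 falling. The tryptophan pair moved by 2.39 and 1.67, where WARS1 rose and WARS2 was at 0.21 and 0.53. The pairs that moved the other way were RARS1 with RARS2 (-0.85 and -0.76), FARSA with FARS2 (-0.68 and -0.95) and FARSB with FARS2 (-0.49 and -0.86). The histidine pair changed by -0.10 and -0.02. EPRS1 and FARS2 each stand in 2 pairs, so the pairs are not independent. The 12 pairs that moved apart all hold a cytosolic gene already called higher, so they repeat the class counts and are no separate result.

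**Figure D4:**
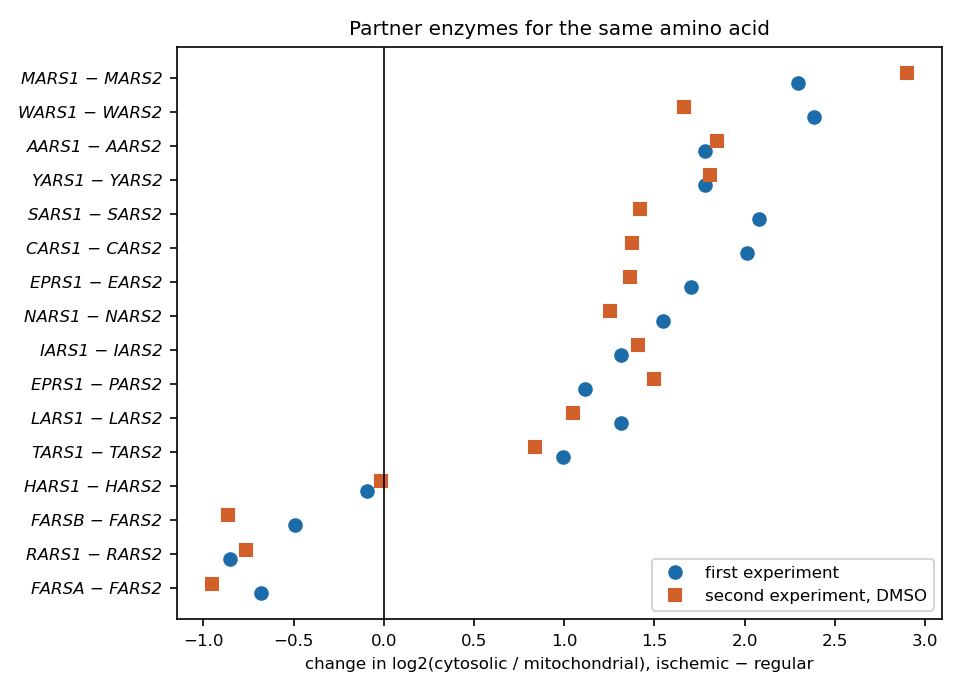
Change of the log2 ratio of the cytosolic to the mitochondrial enzyme (x axis), ischemic minus regular, for each of 16 pairs (y axis), in the first experiment (circles) and with DMSO in the second (squares). The methionine pair lies farthest right with DMSO, at 2.90, and the pairs with RARS2 and FARS2 lie left of 0.

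Other genes of tRNA charging did not share one direction. Of 16 such genes outside the 33, 13 were measured in the first experiment, with 2 higher and 5 lower at any size, and 14 in the second, with 2 higher and 3 lower with DMSO. Of all genes 35.2% were higher and 35.2% lower at any size in the first experiment, and 34.4% and 35.2% with DMSO. The counts of this list and of the mitochondrial factors lay near or below these shares. MTFMT, which formylates the mitochondrial initiator methionyl-tRNA made by MARS2, changed by -1.45 ± 0.14 and -1.07 ± 0.11 (SE) in the first experiment and with DMSO. EEF1E1, a scaffold of the multisynthetase complex, changed by -1.0 ± 0.16 and -0.92 ± 0.17. Of 8 factors of mitochondrial translation, 3 were higher and 2 lower at any size in each experiment, with TSFM at -0.64 ± 0.09 and -0.35 ± 0.07. Of 6 cytosolic elongation factors 5 were higher and 1 lower in each, with EEF2 at 0.88 ± 0.08 and 1.05 ± 0.06 and EIF5A at -1.28 ± 0.07 and -0.65 ± 0.06. EEF1D, 1 of these 5, had low or uneven levels. It read -1.30 and -0.87 in regular and -0.07 and 0.49 in ischemic libraries of the first experiment. With DMSO it read -0.87 and 2.66 against 5.98 and 2.72. Of 7 reference genes of the GCN2 and ATF4 pathway 5 were higher in each and 1 and 2 lower. ATF4 rose by 1.54 ± 0.07 and 1.77 ± 0.06, ASNS (asparagine synthetase) by 2.91 ± 0.06 and 2.99 ± 0.05 and TRIB3 by 4.15 ± 0.08 and 4.02 ± 0.06. SESN2 and DDIT3, further targets of ATF4, were also higher in each. CHAC1, another ATF4 target, was at -0.45 ± 0.29 (adjusted p = 0.179) and fell by 0.88 ± 0.16 with DMSO (adjusted p = 8.31e-05). EIF2AK4, which encodes GCN2, changed by -1.24 ± 0.07 and -0.54 ± 0.06.

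The second experiment asks whether p38α or MK2 bears on these changes. All inhibitor comparisons share the DMSO libraries of their culture. The authors report that ischemic culture kills LN229 cells, and that knockdown of p38α or MK2 raised their survival there. The share of dying cells is not given for these libraries, and its part in the differences was not tested. In ischemic culture both inhibitors gave lower deposited values of most cytosolic synthetase genes, by small amounts. With VX745 no member was called at a fold of 1.5, by limma or by voom, where 4.35% of all genes were called higher and 0.906% lower, and 20 of the 33 had an unadjusted p under 0.05. At any size 15 of 18 cytosolic members were lower and 0 higher, and 1 mitochondrial member was lower and 1 higher, where 14.9% of all genes were lower and 14% higher. With MK25 only the mitochondrial PARS2 was called at a fold of 1.5, where 7.02% of all genes were called higher and 2.65% lower. At any size 14 of 18 cytosolic members were lower and 0 higher, and 2 mitochondrial members were lower and 3 higher, where 22% of all genes were lower and 19.8% higher. The median log2 fold change of cytosolic members was -0.24 with VX745 and -0.32 with MK25. These counts depend on the scaling. After quantile normalization 2 cytosolic members were lower with VX745, at a median of -0.08, and 10 with MK25, at -0.17. Of all 14024 genes, 1380 were lower with VX745 at any size under that setting, and 2467 with MK25. The VX745 count of 2 of 18 lay near the share of all genes. Of all genes called at a fold of 1.5, 82.8% were higher with VX745 and 72.6% with MK25, and 62.6% and 56.4% after quantile normalization. At that threshold the count of members was 1 with VX745 and 3 with MK25 without ischemic DMSO replicate 1, and 2 with MK25 without either ischemic MK25 library. At any size, leaving out ischemic DMSO replicate 1 or ischemic VX745 replicate 1 ended the VX745 calls of FARSA, FARSB, LARS1, RARS1 and RARS2, leaving out ischemic DMSO replicate 2 those of FARSA, FARSB and MARS2, and leaving out ischemic VX745 replicate 2 those of FARSA, FARSB, LARS1 and MARS2. The MK25 call of NARS2 was lost without any one of the 4 libraries compared, that of MARS2 without ischemic DMSO replicate 2 or either MK25 library, and that of AARS2 without ischemic DMSO replicate 2 or ischemic MK25 replicate 1.

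GARS1 was the member lowered most by MK25. In ischemic culture GARS1 read 9.98 and 10.08 with DMSO, 9.63 and 9.64 with VX745 and 9.44 and 9.45 with MK25, changes of -0.39 ± 0.06 (SE) and -0.58 ± 0.06 (SE) (adjusted p = 0.000176 and 1.26e-06). FARSB read 6.42 and 6.45 with DMSO, 6.24 and 6.30 with VX745 and 5.83 and 5.9 with MK25, changes of -0.16 and -0.57. MARS1 read 9.20 and 9.23, 8.98 and 8.95 and 8.70 and 8.6 in the same order, changes of -0.25 and -0.56. In these genes the DMSO libraries were the highest in ischemic culture, with no overlap with either inhibitor. HARS1, which had not passed the test for ischemia with DMSO, read 7.83 and 7.80, 7.46 and 7.48 and 7.32 and 7.29, changes of -0.34 ± 0.05 (SE) and -0.51 ± 0.05 (SE). WARS1 read 9.48 and 9.51, 9.11 and 9.15 and 9.30 and 9.22, changes of -0.36 and -0.24, and the MK25 value was 0.02 after quantile normalization. AARS1 did not pass the test with either inhibitor, at 8.87 and 8.95 with DMSO, 8.87 and 8.81 with VX745 and 9.07 and 9.0 with MK25 (adjusted p = 0.387 and 0.107). QARS1 and CARS1 also did not pass at any size with either inhibitor, and RARS1 passed with VX745 alone, at -0.20 against -0.13 with MK25.

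Further cytosolic members showed the same order in ischemic culture, with DMSO highest. SARS1 read 8.95 and 8.97 with DMSO, 8.68 and 8.70 with VX745 and 8.61 and 8.55 with MK25. TARS1 read 8.96 and 8.96, 8.63 and 8.64 and 8.46 and 8.51, and YARS1 8.96 and 8.98, 8.67 and 8.67 and 8.62 and 8.53. The changes of these 3 genes were between -0.27 and -0.32 with VX745 and between -0.39 and -0.47 with MK25. NARS1 read 8.80 and 8.86, 8.58 and 8.6 and 8.5 and 8.48, and IARS1 9.0 and 9.05, 8.79 and 8.81 and 8.69 and 8.71. EPRS1 read 9.14 and 9.19, 8.95 and 8.90 and 8.83 and 8.91. The DMSO libraries of NARS1, IARS1 and EPRS1 lay above all those with an inhibitor. LARS1 read 8.67 and 8.64, 8.46 and 8.46 and 8.33 and 8.38, and KARS1 8.19 and 8.22, 7.95 and 7.96 and 7.92 and 7.87. FARSA changed by -0.16 and -0.26.

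Some mitochondrial members went the other way. PARS2 (proline) read 2.99 and 3.01 with DMSO, 3.27 and 3.24 with VX745 and 3.6 and 3.67 with MK25 in ischemic culture, a change of 0.25 ± 0.10 (SE) (adjusted p = 0.0805) with VX745 and of 0.63 ± 0.10 (SE) or 1.54-fold (adjusted p = 0.000141) with MK25. MARS2, the member that ischemia lowered most, read 3.15 and 2.96, 3.38 and 3.53 and 3.36 and 3.33, changes of 0.40 ± 0.10 (SE) (adjusted p = 0.00524) and 0.29 ± 0.10 (SE) (adjusted p = 0.0238). AARS2 (alanine) read 5.46 and 5.4, 5.59 and 5.58 and 5.67 and 5.62, changes of 0.16 (adjusted p = 0.0614) and 0.21 (adjusted p = 0.00926). In these 3 genes both DMSO libraries lay below all 4 libraries with an inhibitor. RARS2 was lower with both inhibitors, at 5.69 and 5.57, 5.30 and 5.44 and 5.30 and 5.37, changes of -0.26 and -0.29. NARS2 was lower with MK25, at 5.03 and 5.07 against 4.87 and 4.82 (adjusted p = 0.0287), and read 5.25 and 5.08 with VX745. FARS2 (phenylalanine) read 3.88 and 3.77, 3.76 and 3.69 and 3.56 and 3.74, and WARS2 (tryptophan) 3.53 and 3.56, 3.34 and 3.42 and 3.28 and 3.26, and neither passed the test. The changes of LARS2, YARS2, HARS2, CARS2, EARS2, IARS2, SARS2 and TARS2 were between -0.21 and 0.08 and did not pass either.

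In regular culture few synthetase genes passed the test with an inhibitor. With VX745 no member passed at any size by limma, where 0.178% of all genes were higher and 0.157% lower; 1 member had an unadjusted p under 0.05, and voom called 0. With MK25 5 cytosolic members were higher at any size and none lower, and no mitochondrial member passed, where 7% of all genes were higher and 5.21% lower; 13 of the 33 had an unadjusted p under 0.05, and voom also called 5. With only the groups compared 3 members passed, and without the variance trend 2. WARS1 read 7.24 and 7.36 with DMSO, 7.19 and 7.18 with VX745 and 7.64 and 7.72 with MK25, a change of 0.38 ± 0.06 (SE) with MK25 (adjusted p = 0.000242). AARS1 read 7.33 and 7.46, 7.29 and 7.38 and 7.70 and 7.72, a change of 0.32 ± 0.06 (SE) with MK25 (adjusted p = 0.00164). The MK25 libraries of both genes were above all other regular libraries. GARS1 read 8.01 and 7.84, 7.93 and 7.99 and 8.14 and 8.20, SARS1 7.53 and 7.39, 7.49 and 7.54 and 7.75 and 7.66, and YARS1 7.52 and 7.46, 7.51 and 7.54 and 7.69 and 7.66. Their changes with MK25 were 0.25, 0.25 and 0.19, and without regular DMSO replicate 2 they were 0.16, 0.17 and 0.16 and did not pass. These calls were also lost without regular MK25 replicate 1 for SARS1 and YARS1 and without regular MK25 replicate 2 for GARS1 and YARS1. CARS1 read 3.01 and 2.95 with DMSO, 3.12 and 2.35 with VX745 and 3.72 and 3.91 with MK25, a change of 0.84 ± 0.30 (SE) that did not pass (adjusted p = 0.0803).

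The ischemic change was then read within each treatment. With VX745 10 cytosolic members were called higher and 1 lower, where 18.5% of all genes were called higher and 14.5% lower. With MK25 8 were called higher and 3 lower, where 17.7% were called higher and 15% lower. Of the mitochondrial members 0 were called higher and 1 and 2 lower; 10 and 8 had an unadjusted p under 0.05, and voom called 1 and 2. The rise of GARS1 was 2.10 ± 0.06 (SE) with DMSO, 1.67 ± 0.06 (SE) with VX745 and 1.27 ± 0.06 (SE) with MK25. The rise of TARS1 was 0.96, 0.62 and 0.37, that of NARS1 0.73, 0.49 and 0.30, and that of WARS1 2.20, 1.95 and 1.58. The changes of FARSB were -0.39, -0.48 and -0.80, and those of MARS2 -1.62, -1.18 and -1.10.

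**Figure D5:**
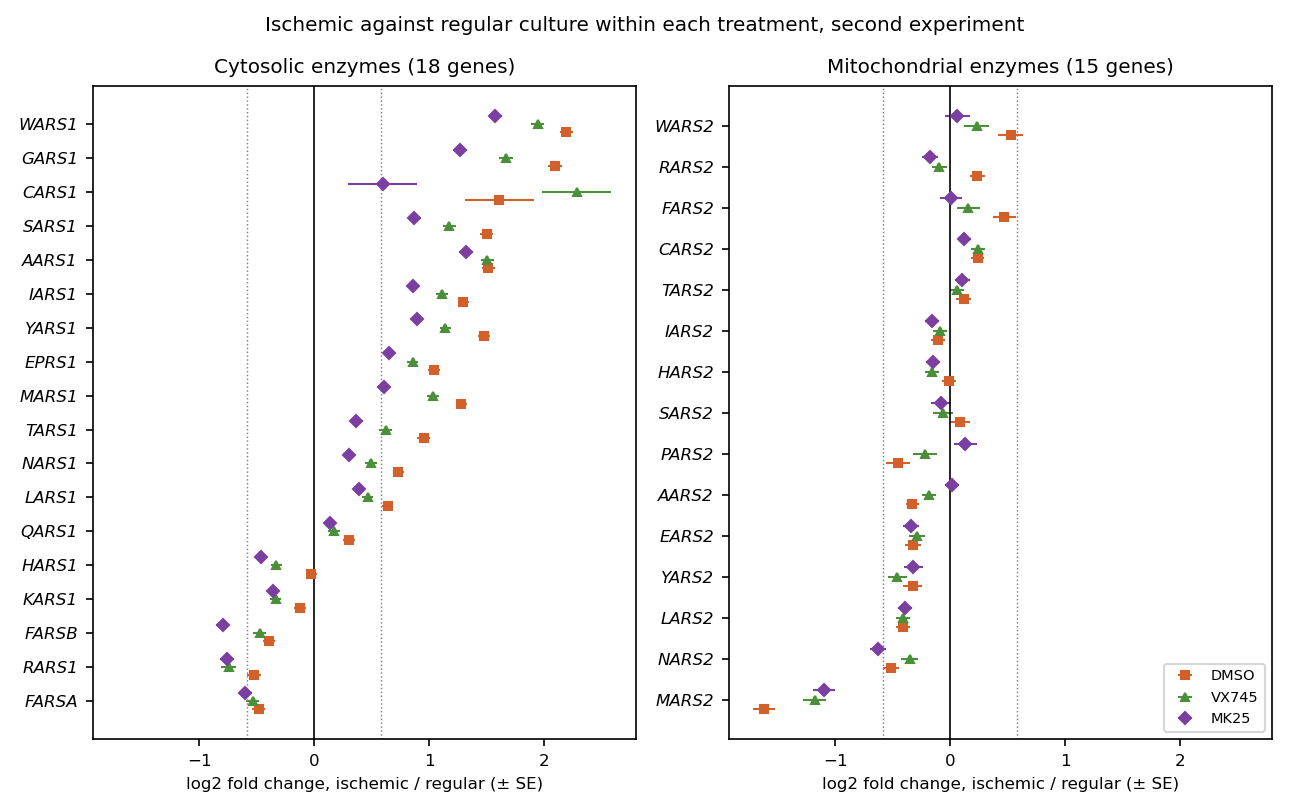
Log2 fold change (x axis) of ischemic against regular culture for each member (y axis), with SE bars, within DMSO (squares), VX745 (triangles) and MK25 (diamonds), 2 libraries per group. Dotted lines mark a fold change of 1.5. For GARS1 the values are 2.10, 1.67 and 1.27, and for MARS2 they are -1.62, -1.18 and -1.10.

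Whether the response to ischemia itself differed between an inhibitor and DMSO was tested as an interaction, called at any size. For MK25, 13 of 18 cytosolic members had a smaller or more negative response and none a larger one, where 13.9% of all genes had a negative and 10.5% a positive interaction; 17 of the 18 had an unadjusted p under 0.05 and voom called 13. Of the mitochondrial members 3 were positive and 3 negative. The interaction was -0.83 ± 0.09 (SE) for GARS1 (adjusted p = 4.45e-06), -0.67 ± 0.07 (SE) for MARS1, -0.63 ± 0.08 (SE) for SARS1, -0.62 ± 0.08 (SE) for WARS1, -0.59 ± 0.08 (SE) for TARS1 and -0.58 ± 0.07 (SE) for YARS1. For AARS1 it was -0.20 ± 0.08 (SE) and did not pass (adjusted p = 0.0943). The positive interactions were those of PARS2 (0.59), MARS2 (0.52) and AARS2 (0.35), and the negative mitochondrial ones those of FARS2, WARS2 and RARS2. After quantile normalization 10 cytosolic members were negative, and 3 mitochondrial members were positive and 3 negative. Of all 14024 genes, 1477 were negative and 1412 positive under that setting. Leaving out a library ended the MK25 interaction of WARS2 in 10 of 12 cases, of KARS1 in 5, of FARS2 in 4, of LARS1 in 3 and of MARS2 in 1, the removal of ischemic DMSO replicate 2.

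For the libraries behind the interactions, the regular values of FARS2 were 3.38 and 3.33 with DMSO and 3.71 and 3.57 with MK25, those of WARS2 3.01 and 3.03 and 3.22 and 3.20, and those of RARS2 5.4 and 5.38 and 5.50 and 5.52. In these 3 genes the MK25 libraries were the higher ones in regular culture and the lower ones in ischemic culture. Those of PARS2 were 3.42 and 3.49 and 3.61 and 3.38, of MARS2 4.76 and 4.59 and 4.41 and 4.48, and of AARS2 5.72 and 5.80 and 5.63 and 5.62. The regular libraries of MARS1 read 7.95 and 7.91 with DMSO and 8.05 and 8.03 with MK25, those of TARS1 8.09 and 7.91 and 8.10 and 8.14, those of HARS1 7.84 and 7.84 and 7.80 and 7.74, and those of FARSB 6.84 and 6.81 and 6.70 and 6.62. The means of MARS1 and TARS1 were thus the higher with MK25, and those of FARSB and HARS1 the lower. No gene of this paragraph passed the test of MK25 against DMSO in regular culture.

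For VX745, 7 cytosolic members had a negative interaction, where 6% of all genes had a negative and 5.78% a positive one, and RARS2 was negative and MARS2 positive among the mitochondrial members. The values were -0.43 ± 0.09 (SE) for GARS1 (adjusted p = 0.00514), -0.34 for YARS1, -0.33 for SARS1, -0.33 for TARS1, -0.30 for HARS1, -0.25 for MARS1 and -0.24 for NARS1. All 9 members with a VX745 interaction also had one for MK25 in the same direction, and the tests share the DMSO libraries. This set was the least stable: after quantile normalization 1 member passed in place of 9. Of all 14024 genes, 436 were negative and 590 positive under that setting. Without ischemic VX745 replicate 1 or 2, 2 and 4 passed, without ischemic DMSO replicate 1 or 2, 3 and 5, without regular VX745 replicate 1 or 2, 5 and 4, and without regular DMSO replicate 2, 5.

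The reference genes of the ATF4 pathway were read in the same comparisons. In ischemic culture ATF4 changed by -0.35 ± 0.06 (SE) with VX745 and -0.42 ± 0.06 with MK25, and ASNS by -0.29 ± 0.05 and -0.61 ± 0.05. In regular culture with MK25 ATF4 rose by 0.47 ± 0.06 and ASNS by 0.45 ± 0.05. The MK25 interaction was -0.89 ± 0.09 for ATF4 and -1.06 ± 0.08 for ASNS, beside -0.83 for GARS1 and -0.62 for WARS1. These 2 members were among those with the larger interactions. Over the 18 cytosolic members the median was -0.44 and the range -1.02 to -0.12, and AARS1 did not pass. Of the 7 reference genes 5 were lower with VX745 in ischemic culture at any size, where 14.9% of all genes were lower. All 7 were lower with MK25 there, where 22% of all genes were lower. In regular culture 5 were higher with MK25, where 7% of all genes were higher.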

How the data were processed

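RNA of LN229 cells was sequenced in 16 libraries of 8 groups. The authors prepared libraries with SMART-Seq and Nextera XT kits, aligned the reads to GRCh38 with HISAT2 and counted them on genes, and edgeR is named in their processing notes. They deposited log2 normalized CPM per gene and library, 1 table per experiment. The unlogged values are whole reads plus a constant offset in 100% of cases (tolerance 0.1 read), which gave the depth; 3 reads were taken as the floor and cover counting error only. Symbols matched 99.4% and 99.3% of the Entrez identifiers.

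The log2 values were fitted as deposited with limma 3.58.1 (R 4.3.3), with 1 mean per group, a variance trend and two-sided p-values adjusted by Benjamini-Hochberg over all genes of a table; the second experiment used its 12 libraries in 1 fit. In simulated data of 13559 genes for ischemia in the first experiment, the fit recovered 96.5% of 200 genes that had been given a log2 change of 1. The simulated reads had a fixed spread between libraries, and the changed genes were drawn above a minimum level. Smaller changes, such as most of those with the inhibitors, and noisier genes were not simulated. Class means and pairs are descriptions without a test. Levels per kilobase use the MANE transcript of GENCODE release 44, with overlaps as a share of its exons. Promoters are from RefSeq. Figures were drawn with matplotlib 3.10.9 in Python 3.11.15.

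Every member is named. Values per library were given for the 6 cytosolic and 4 mitochondrial members with the largest mean absolute change over both ischemia comparisons, members with an interaction, the members called most for each inhibitor, GARS1, KARS1, HARS1 and HARS2. The members and lists were chosen with earlier results of these data known. Alternatives were quantile normalization, median centring, a filter on a mean of 1 CPM, no variance trend, only the groups compared, folds of 2 or any size, voom on the recovered reads, a replicate block, class medians, classes without GARS1 and KARS1, and each library left out.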

Additional observations from a re-analysis of the deposited data

Results flagged for a closer look

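The response to ischemia differed between MK25 and DMSO, by a test of the difference itself, for 19 members, 16 negative and 3 positive, where 13.9% of all genes had a negative and 10.5% a positive interaction. On the log2 scale the interaction was -0.83 for GARS1, -0.67 for MARS1, -0.63 for SARS1, -0.62 for WARS1, -0.59 for TARS1, -0.58 for YARS1, -0.44 for IARS1, -0.44 for HARS1, -0.43 for NARS1, -0.40 for FARSB, -0.39 for EPRS1, -0.25 for LARS1 and -0.23 for KARS1. Among mitochondrial members it was -0.47 for WARS2, -0.46 for FARS2 and -0.41 for RARS2, and 0.59 for PARS2, 0.52 for MARS2 and 0.35 for AARS2.

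Between VX745 and DMSO it differed for 9 members, 8 negative and 1 positive, where 6% of all genes had a negative and 5.78% a positive interaction. The interaction was -0.43 for GARS1, -0.34 for YARS1, -0.33 for TARS1, -0.33 for SARS1, -0.33 for RARS2, -0.30 for HARS1, -0.25 for MARS1, -0.24 for NARS1 and 0.44 for MARS2. Both sets of tests use the same DMSO libraries.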

How the results depend on the processing

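In each leave-out of 1 library, 12 cytosolic members were called higher for ischemia in the first experiment and with DMSO, 10 with VX745 and 8 to 9 with MK25. Mitochondrial members called lower numbered 2 to 4 in the first experiment and 1 with DMSO. A fold of at least 2 gave 1 mitochondrial member lower in the first experiment and 3 cytosolic members higher with MK25. At any size, 6 and 7 mitochondrial members were lower in the first experiment and with DMSO. For the inhibitors in ischemic culture, any size gave 17 members with VX745 and 19 with MK25. With MK25, the count of 1 was 0 at a fold of at least 2 or after quantile normalization and 2 after median centring. Leave-outs gave 0 to 1 with VX745 and 1 to 3 with MK25. In regular culture no member was called with MK25 at a fold of 1.5, against 1 with only the groups compared and 0 to 1 in leave-outs; at any size it was 5, 3 with only the groups compared and 2 without the variance trend. The VX745 interaction count of 9 was 1 after quantile normalization, 2 without the variance trend, 0 at a fold of at least 1.5 or 2, and 2 to 10 in leave-outs. The MK25 interaction count of 19 was 6 at a fold of at least 1.5, 0 at 2, and 15 to 19 in leave-outs. The widening between the class means was, by class median, 1.72 in the first experiment, 1.46 with DMSO, 1.21 with VX745 and 1.03 with MK25. After quantile normalization it was 0.96, 0.79, 0.80 and 0.52 in the same order, and with CARS1 left out, an alternative chosen after seeing the data, 1.00, 0.96 and 0.76 in the first 3. Leave-outs gave 1.02 to 1.12, 0.98 to 1.02, 0.83 to 0.88 and 0.56 to 0.59. The direction of 1 called value reversed, WARS1 with MK25 in ischemic culture, at 0.0224 after quantile normalization. Over 5973 further member values under all settings, 185 calls were lost and 59 gained. The cause of these changes was not tested.

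The correlation of deviations between libraries with the same replicate number was 0.271 in the first experiment, with 1 pair of groups. In the second it was -0.266 to 0.325. With 2 libraries per group these values cannot show whether the replicate numbers pair the libraries, and the main fit used no pairing. With a replicate block the VX745 interaction count was 8 in place of 9, with MARS2 at 0.44 no longer past the threshold, and no other member call changed. The largest SE was that of CARS1, the member with the lowest count in any library. Among calls of any size, WARS2 lost its MK25 interaction in 10 leave-outs, and MARS2, MARS1, NARS1 and SARS1 lost their VX745 interaction in 8, 7, 7 and 6.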
